A study of Mus musculus with 4 samples.

Results

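The genes described here encode collagens, laminins, integrins, galectins, other matrix glycoproteins, the metalloproteases that cut matrix and cell surface proteins, their Timp inhibitors, and the enzymes that modify collagen. They were chosen by symbol alone, and 98 of the 13658 genes in the authors' deposited table matched. The match also took 4 genes that share a symbol root but belong to other families (Itgb1bp1, Itgb3bp, Col4a3bp and Loxhd1), and these were counted apart. GENCODE's mouse annotation for GRCm38 holds 191 protein-coding genes with such symbols, and the other 93 are not analysed here. RNA was measured in mouse morulae, which had grown in M16 medium from wild-type fertilized eggs injected at the 1-cell stage with 100 µM siRNA. A non-targeting siRNA pool (siNT) was given to 2 samples and a pool against Nr1h2 (siNr1h2), the gene of the oxysterol receptor LXRβ, to 2 others. No source used here gives the number of embryos per sample, the mouse strain or whether replicates came from separate injections, so the p-values reflect only how far these samples differ, which may be technical. The table holds 1 comparison and no value per sample, so the levels below are means over all 4 samples, with no spread of their own, and the depth of each sample is unknown.

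Extracellular matrix is laid down outside cells as fibrils and as basement membranes, thin sheets built on laminin trimers and on a collagen IV network that nidogen links together. Cells hold on to matrix through integrins, paired α and β chains whose cytoplasmic tails recruit adaptor proteins to actin. Galectins are secreted lectins that bind β-galactosides on glycoproteins. In the mouse embryo, laminin and collagen IV are made before implantation, and integrin β1 is needed for the inner cell mass to survive implantation.

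Of the 98 genes, 4 passed an adjusted p of 0.05 in the authors' deposited table, Lgals4 and Adamts3 lower and Plod2 and Col7a1 higher in siNr1h2 morulae. Lgals4 (galectin-4, a lectin with paired sugar-binding domains known from gut epithelium) was 2.13 times lower (95% interval 1.69 to 2.69). Adamts3, a protease that trims the amino end of procollagen, was 8.08 times lower (2.67 to 24.5). The gene for lysyl hydroxylase 2, Plod2, was 1.82 times higher (1.36 to 2.44), and that for the anchoring-fibril collagen, Col7a1, 2.14 times higher (1.39 to 3.28). An adjusted p was given for 74 of the 98 genes and the other 24 had mean normalized counts too low for one, so the calls were 4 of 74, or 5.41%, against 1.98% of all 12069 genes tested. By direction they were 2 higher against 0.456% of all genes and 2 lower against 1.52%. The difference from these background shares was not tested. An unadjusted p under 0.05 was seen for 11 of the 74 (14.9%), close to the 13.3% of all genes tested. When the Wald statistics were read against a t distribution with the 2 degrees of freedom that 4 samples in 2 groups leave, none of the 12069 genes passed. The knocked-down Nr1h2 did not pass either (smallest adjusted p of any gene 0.948), so a design this small could pass no gene. The failure thus says nothing about the calls. Of 68 genes then at an unadjusted p under 0.05, 1 was a member, Lgals4. The median log2 fold change was 0.03 over the 74 and 0.00 over all genes tested. Of the 74, 38 lay above 0 (51.4%), against 50.6% of all genes tested. In samples of whole embryos, fewer cells of a type and less RNA per cell cannot be told apart.

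**Figure D1:**
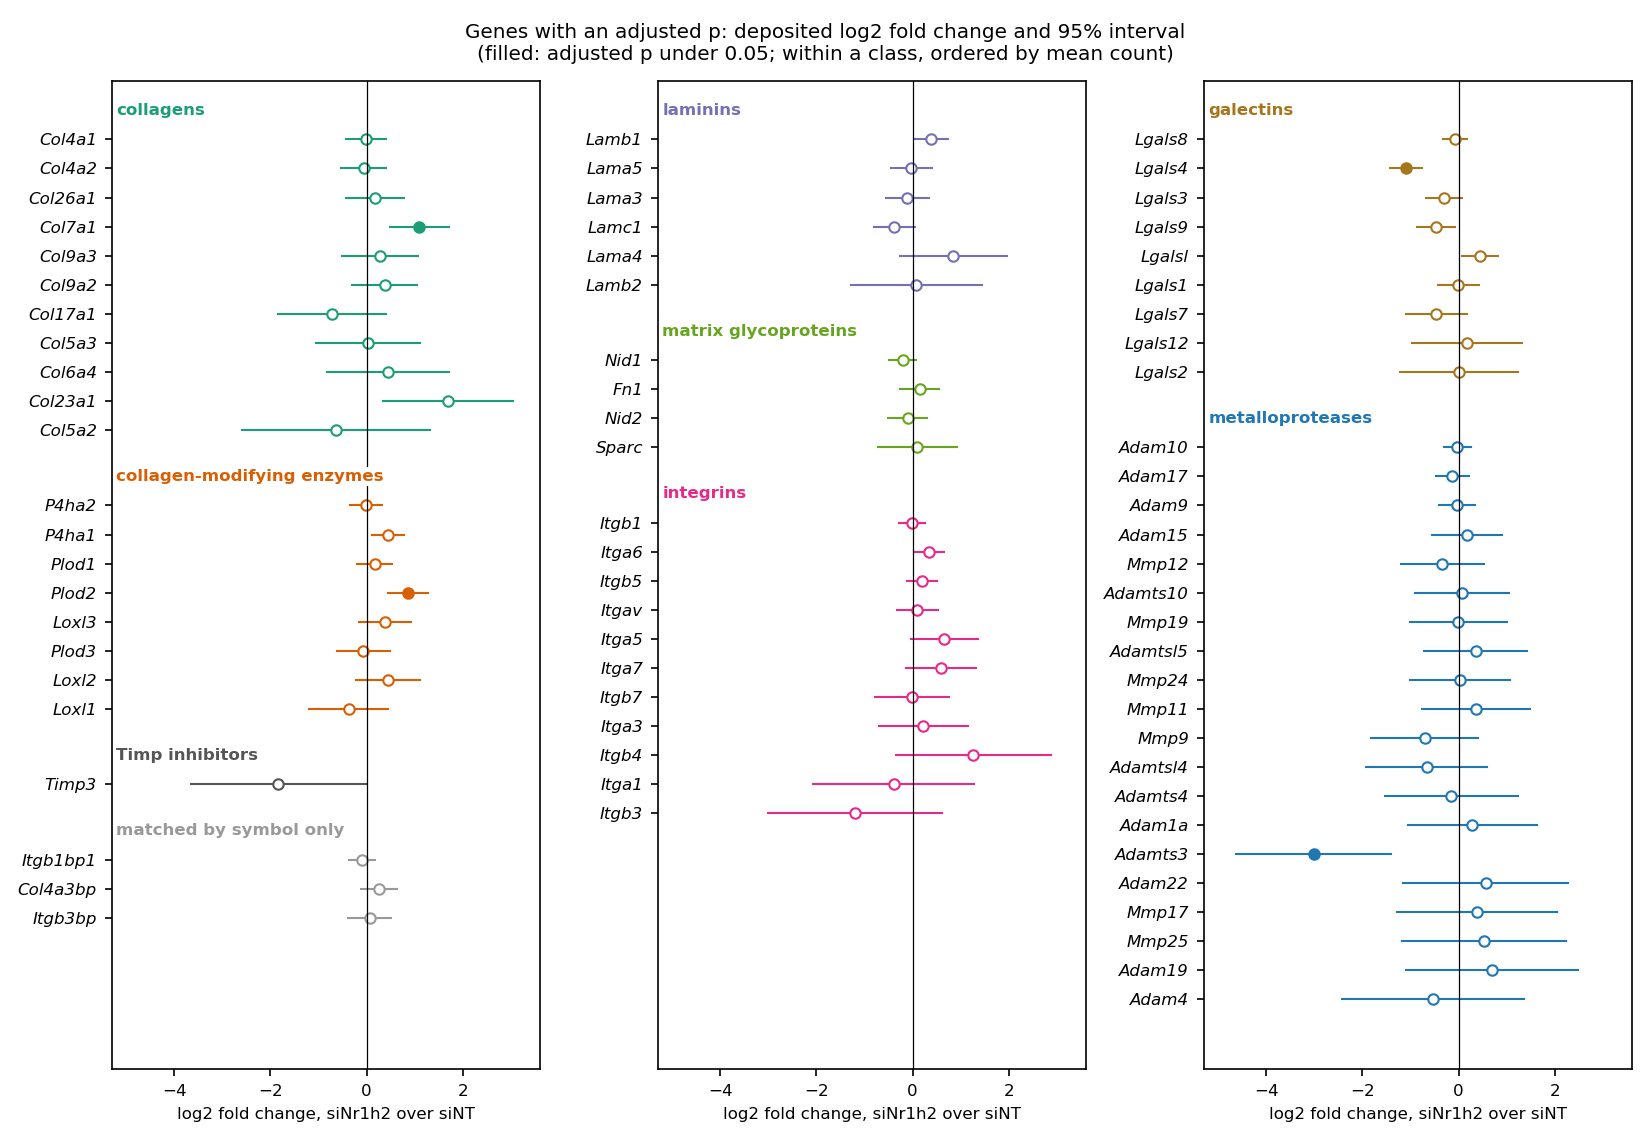
Deposited log2 fold changes (siNr1h2 over siNT, x axis) of genes with an adjusted p, by class (1 gene is not shown), with bars for 95% intervals from the standard error; filled points passed an adjusted p of 0.05. Only Col7a1 and Plod2 on the right and Lgals4 and Adamts3 on the left are filled, and the intervals widen towards the low-count genes at the foot of each class.

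Precision varied widely among these genes. The 41 genes whose mean normalized count was 50 or more would each have needed, at the median, a change of 1.63 times to be called, and the 33 tested genes below that count 4.34 times. The size needed is the smallest absolute Wald statistic among called genes, 3.30, times the gene's standard error. A change of 2 times could have been called for 31 of the 74 genes, and 33 had a 95% interval that lay wholly within 2 times in either direction. Of the 4 calls, Lgals4, Plod2 and Col7a1 belonged to the 41 better-measured genes, and only Adamts3 had a mean count under 50. Over all genes the shares called were 2.26% of the 9033 with a mean count of 50 or more and 1.15% of those tested below it.

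**Figure D2:**
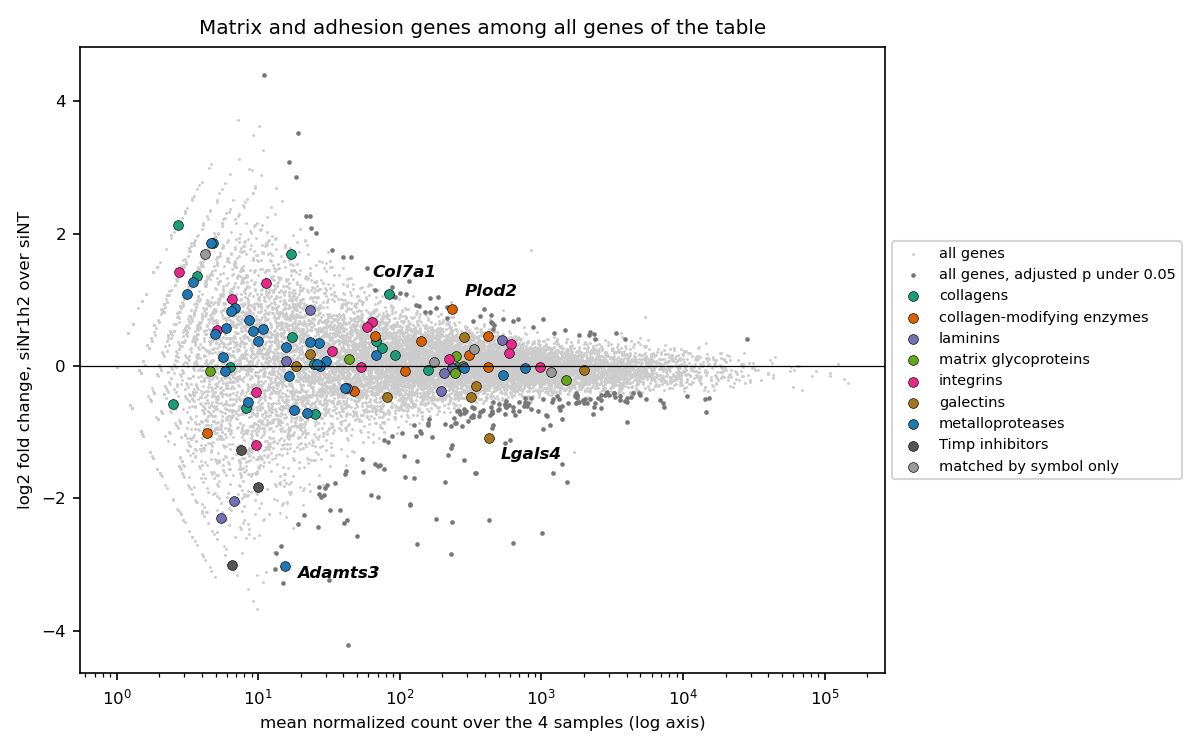
Log2 fold change (y axis) against the mean normalized count over the 4 samples (x axis, log scale) for all 13658 genes in grey, darker where the adjusted p was under 0.05, with the 98 matrix and adhesion genes coloured by class. Most coloured points lie inside the grey cloud, Lgals4 (mean 424), Plod2 (235) and Col7a1 (83.9) stand at its edge, and Adamts3 (15.5) lies among low counts.

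The sequence upstream of the called genes is shown because Nr1h2 encodes a DNA-binding receptor. RefSeq's promoter table (GRCm38.p6, a later build than the mm9 of the submitters' processing notes) matched 63 of the 98 symbols and 3 of the 4 called genes, Col7a1, Lgals4 and Adamts3. The windows are the 250 bases before the annotated start, at chr9:108953336-108953585 (plus strand) for Col7a1, chr7:28833544-28833793 (plus strand) for Lgals4 and chr5:89883335-89883584 (minus strand) for Adamts3. Capitals mark the nuclear receptor half-site AGGTCA, searched on both strands, so that it can also read TGACCT.
Col7a1: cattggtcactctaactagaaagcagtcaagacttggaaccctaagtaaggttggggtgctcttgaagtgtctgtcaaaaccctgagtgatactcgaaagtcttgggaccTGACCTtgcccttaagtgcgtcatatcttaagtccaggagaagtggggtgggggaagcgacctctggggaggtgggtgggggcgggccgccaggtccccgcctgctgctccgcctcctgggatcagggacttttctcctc
Lgals4: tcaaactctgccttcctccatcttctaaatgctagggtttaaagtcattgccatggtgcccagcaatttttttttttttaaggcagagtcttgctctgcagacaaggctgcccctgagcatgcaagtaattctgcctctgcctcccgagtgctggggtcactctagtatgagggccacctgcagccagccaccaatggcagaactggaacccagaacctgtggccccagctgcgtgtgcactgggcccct
Adamts3: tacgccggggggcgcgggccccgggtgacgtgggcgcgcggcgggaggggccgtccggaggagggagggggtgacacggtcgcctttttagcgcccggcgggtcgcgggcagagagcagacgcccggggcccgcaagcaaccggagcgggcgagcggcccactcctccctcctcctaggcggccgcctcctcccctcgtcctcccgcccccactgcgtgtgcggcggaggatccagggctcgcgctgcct
The Col7a1 window held 1 match, whose first base lies 140 bases before the start, and the Lgals4 and Adamts3 windows held 0. Such a match was present in 14.0% of all 32851 windows in the table and in 7 of the 67 windows of the matrix and adhesion genes (10.4%). The direct repeat in which liver X receptors classically bind, this half-site written a second time after 4 bases of any kind, was found in 5 of the 32851 windows and in 0 of the 67. Only exact copies were searched, and the repeat was so rare over all windows that 0 of 67 is uninformative. A match of letters is a description of the window and not a binding site, and its absence does not show that no receptor binds. The Adamts3 window was the richest in G and C (78.0%, against 56.4% for Col7a1 and 53.6% for Lgals4).

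Among collagens, the subunits of matrix fibrils and networks, 1 of the 11 genes with an adjusted p was higher, 10 did not pass, and 5 further genes had no adjusted p. Col7a1 encodes type VII collagen, which forms the anchoring fibrils under stratified epithelium. It had a log2 fold change of 1.09 ± 0.32 (SE) and an adjusted p of 0.0351 in the authors' deposited table. Its mean count of 83.9 and that fold correspond to about 53.5 normalized counts in siNT and 114 in siNr1h2, approximate group means worked out from the mean over all samples. Its transcript is long (9.25 kb) and rich in G and C (61.6%), and after a smooth trend of fold change with length and GC content had been removed from all genes its log2 fold change was 0.90 and its adjusted p 0.141. Col23a1, a transmembrane collagen, had the next smallest p of the class, with a log2 fold change of 1.69 ± 0.69 and an adjusted p of 0.226 in the authors' deposited table, at a mean count of 16.9. Col17a1, the hemidesmosomal collagen of the same skin anchorage as type VII, stood at -0.72 ± 0.58 (adjusted p = 0.635). The difference between Col7a1 and Col17a1 was 1.82 on the log2 scale (95% interval 0.53 to 3.11). This and the other differences between paired genes below were picked after the values were seen, take the errors of genes as independent and carry no test.

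Col4a1 was the most abundant collagen gene, and no change of collagen IV, the network collagen of basement membranes, was detected. Col4a1 and Col4a2, whose chains combine in 1 trimer, had mean normalized counts per kb of transcript of 38.5 and 24.4. The authors' deposited table puts them at -0.02 ± 0.21 and -0.06 ± 0.24 on the log2 scale, with intervals of 0.741 to 1.32 and 0.689 to 1.33 as folds. A change of 1.5 times lay outside both as deposited, but this depends on the scaling. The median of ribosomal protein genes lay at 0.11, and the length and GC trend at 0.13 for Col4a1 and 0.18 for Col4a2. Taking either off would move both intervals down. The genes sit head to head and their annotated exons overlap on opposite strands. The library kit does not keep strand, so reads in the overlap cannot be assigned. Col26a1 (33.1 counts per kb) and the collagen IX chain genes Col9a3 (24.8) and Col9a2 (23.2) had similar levels and stood at log2 values of 0.17 ± 0.31, 0.28 ± 0.41 and 0.37 ± 0.34 by the authors' deposited table. Annotated exons of Col9a3 overlap those of Tcfl5 (mean count 673) on the opposite strand, so reads in that overlap cannot be assigned either. Fibrillar collagens of connective tissue had low counts. Col1a1 and Col2a1 had mean counts of 2.72 and 4.77 and no adjusted p, and Col5a2 and Col5a3 mean counts of 8.20 and 24.8 and log2 values of -0.63 ± 1.00 and 0.03 ± 0.55 by the authors' deposited table. For Col2a1 the deposited log2 fold change of 1.85 ± 1.30 spans 0.615 to 21.3 as a fold and is uninformative.

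Of the enzymes that modify collagen, 4 had more counts per kb than any collagen, and 1 of the 8 with an adjusted p was higher. Plod2 encodes the lysyl hydroxylase that acts on collagen telopeptides, the step that sets the kind of cross-link formed. It had a log2 fold change of 0.86 ± 0.21 (SE) and an adjusted p of 0.00694 in the authors' deposited table, or about 167 normalized counts in siNT and 303 in siNr1h2. Its relatives Plod1 (0.17 ± 0.18, adjusted p = 0.762), which acts on the helical part of collagen, and Plod3 (-0.07 ± 0.28, adjusted p = 0.950), which also transfers sugars to hydroxylysine, missed the threshold of the authors' deposited table. Plod2 differed from Plod1 by 0.69 (95% interval 0.14 to 1.25) and from Plod3 by 0.93 (0.25 to 1.62) on the log2 scale. Over all samples, the order of counts per kb was Plod1 (95.3), Plod2 (64.1) and Plod3 (33.0). A noncoding gene model overlaps exons of Plod2 on the opposite strand in the annotation.

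The prolyl 4-hydroxylases, which hydroxylate proline and so let the collagen triple helix hold at body temperature, had the highest levels of the enzyme class. P4ha2 stood at 185 and P4ha1 at 103 normalized counts per kb. P4ha1 had the next smallest p after Plod2 among the collagen-modifying enzymes, for which the authors' deposited table gives 0.45 ± 0.17 on the log2 scale (adjusted p = 0.170), and P4ha2 stood at -0.02 ± 0.17 (adjusted p = 0.976). The difference between these α subunit genes was 0.47 (95% interval 0.00 to 0.94), while P4ha3 had a mean count of 4.31 and no adjusted p. Lysyl oxidases, which start collagen and elastin cross-linking, were represented by Loxl3 (0.38 ± 0.28), Loxl2 (0.45 ± 0.34) and Loxl1 (-0.37 ± 0.42) in the authors' deposited table, and none of these passed. Their mean counts ran from 47.6 for Loxl1 to 142 for Loxl3. Annotated exons of Loxl3 overlap those of Htra2 (mean count 446) on the opposite strand, so reads in that overlap cannot be assigned.

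**Figure D3:**
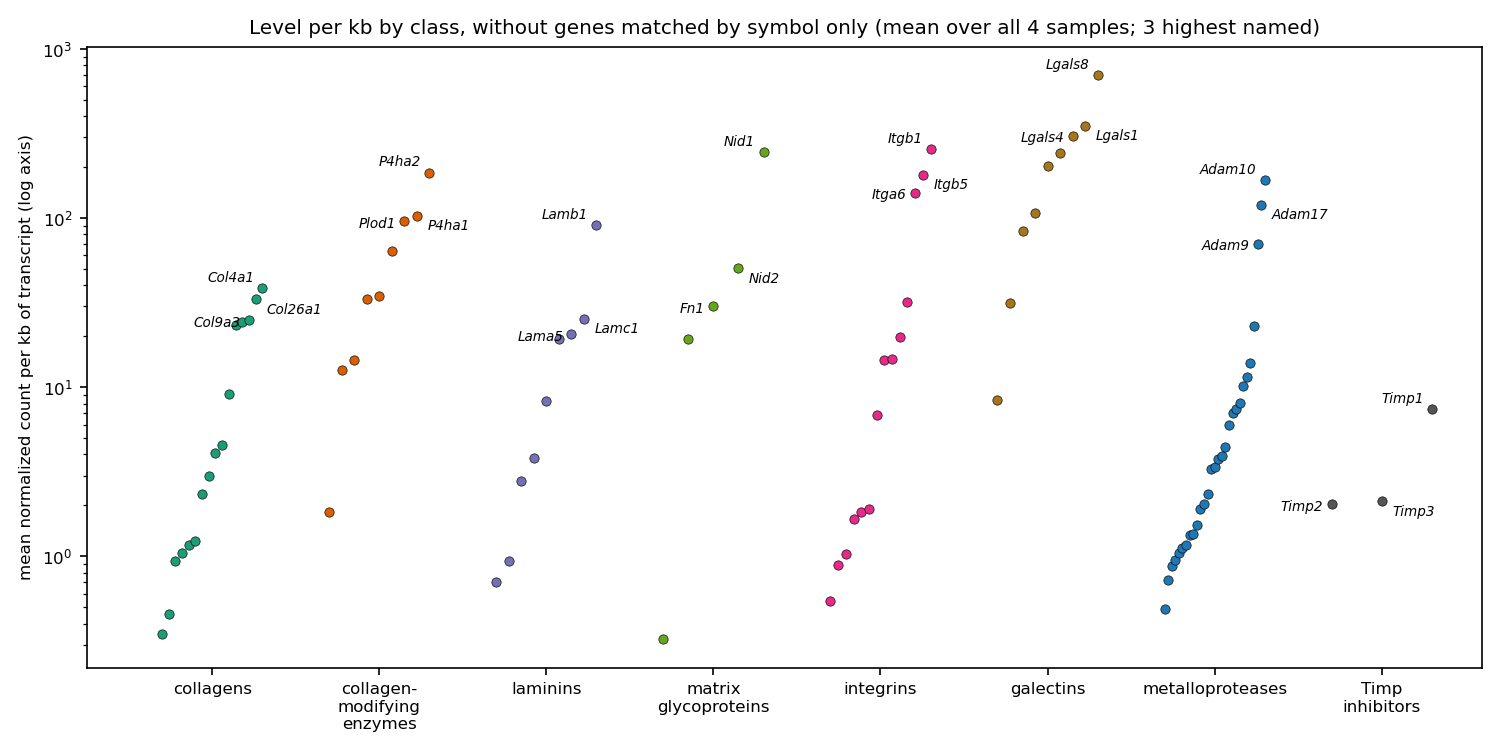
Mean normalized count per kb of transcript (y axis, log scale) by class, without the genes matched by symbol only, each point 1 gene, a mean over all 4 samples with the 3 highest genes of a class named. Galectins, integrins, nidogen, prolyl hydroxylases and Adam proteases reach above 100, collagens stay below 40, and the 3 Timp genes lie below 10.

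Laminins, the trimers on which a basement membrane is built, had 9 genes in the table, and none of the 7 with an adjusted p passed. The chain genes of the trimer made by early embryos and most epithelia, Lama5, Lamb1 and Lamc1, had 20.5, 90.4 and 25.4 normalized counts per kb. Averaged over all 4 samples, Lamb1 was thus 3.55 times as abundant per kb as Lamc1, its partner in the trimer. That ratio describes neither group. The approximate group means were 453 normalized counts for Lamb1 and 219 for Lamc1 in siNT, and 593 and 169 in siNr1h2. On the log2 scale of the authors' deposited table these chain genes stood at 0.39 ± 0.18 for Lamb1 (adjusted p = 0.299), -0.38 ± 0.22 for Lamc1 (adjusted p = 0.455) and -0.03 ± 0.22 for Lama5 (adjusted p = 0.980). Lamb1 and Lamc1 lay on opposite sides of 0, and the difference between them was 0.77 on the log2 scale (95% interval 0.22 to 1.32). Lama3, an α chain of epithelial laminins, stood at 19.3 counts per kb, and at a log2 value of -0.11 ± 0.23 by the authors' deposited table. Lama1, the α chain characteristic of the early embryo and of Reichert's membrane, had a mean count of only 6.73. Its log2 fold change was -2.03 ± 1.18, and Lamc3 (mean count 5.50) stood at -2.30 ± 1.28 in the authors' deposited table. As folds the intervals ran from 0.0495 to 1.21 for Lama1 and from 0.0356 to 1.16 for Lamc3, and neither gene had an adjusted p.

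The other matrix glycoproteins likewise gave no call among 4 tested genes. Nid1, nidogen-1, which joins laminin to collagen IV, had 246 normalized counts per kb, the most of any structural matrix gene here, and was 4.87 times as abundant as Nid2 (50.6). Annotated exons of Nid2 overlap those of Rtraf (mean count 4546) on the opposite strand, so reads in that overlap cannot be assigned. Nid1 stood at -0.21 ± 0.14 (adjusted p = 0.543) and Nid2 at -0.10 ± 0.21 (adjusted p = 0.892) in the authors' deposited table. For Nid1 the interval, 0.714 to 1.05 as a fold, was among the narrowest of the 98. Fn1, the fibronectin gene, stood at 0.15 ± 0.21 (adjusted p = 0.822) with 30.0 counts per kb, and Sparc, a collagen-binding matricellular protein gene, at 0.10 ± 0.42 (adjusted p = 0.954) with 19.2 counts per kb in the authors' deposited table. Hspg2, which encodes the basement membrane proteoglycan perlecan, was at a mean count of 4.57 with no adjusted p.

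Integrins, the receptors for these ligands, gave no call among 11 tested genes. Of the 11, 7 lay above 0 (63.6%, against 50.6% of all genes tested), with a median of 0.19 on the log2 scale. The trend of fold change with length and GC content over all genes ran from -0.06 (Itga1) to 0.17 (Itgb4) for them. Itgb1, the shared β chain of the laminin, collagen and fibronectin receptors, had 256 normalized counts per kb. It stood at -0.02 ± 0.14 in the authors' deposited table (adjusted p = 0.974), with a 95% interval of 0.817 to 1.19 as a fold. Its laminin-binding partner Itga6 (141 counts per kb) had the smallest p of the class, at 0.34 ± 0.16 with an adjusted p of 0.307 by the authors' deposited table. Itga6 minus Itgb1 was 0.36 (95% interval -0.05 to 0.77). Among the receptors for RGD ligands such as fibronectin and vitronectin, Itgb5 (180 counts per kb) stood at 0.19 ± 0.16, Itgav (31.7) at 0.10 ± 0.22 and Itga5 (14.6) at 0.66 ± 0.36 in the authors' deposited table. The adjusted p-values of these 3 genes were 0.662, 0.901 and 0.420. Itga7, another laminin receptor chain, stood at 0.59 ± 0.37 (adjusted p = 0.515) and Itgb4, the hemidesmosomal partner of Itga6, at 1.26 ± 0.82 (adjusted p = 0.533) in the authors' deposited table. Itgb4 had only 1.82 counts per kb. The collagen-receptor chain genes Itga1, Itga10 and Itga11 had mean counts of 9.69, 2.75 and 5.15.

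Galectins included the most abundant of the 98 genes per kb, and 1 of 9 tested genes was lower. Lgals4 had a log2 fold change of -1.09 ± 0.17 (SE) and an adjusted p of 8.73e-08 in the authors' deposited table, the smallest of the 98 genes. The approximate group means were 577 normalized counts in siNT and 271 in siNr1h2. Averaged over all 4 samples, Lgals4 had 306 counts per kb, below Lgals8 (698) and Lgals1 (350). That order describes neither group. Scaled by transcript length, the approximate group means put Lgals4 above Lgals1 in siNT and below Lgals3 in siNr1h2. Lgals8, a galectin known for marking damaged endosomes, stood at -0.07 ± 0.13 (adjusted p = 0.878), and Lgals1 at -0.00 ± 0.22 (adjusted p = 0.997) in the authors' deposited table. Lgals3, the chimeric galectin with a collagen-like tail, stood at -0.30 ± 0.19 (adjusted p = 0.523) and Lgals9, a tandem-repeat galectin like Lgals4, at -0.47 ± 0.20 (adjusted p = 0.260) in the authors' deposited table. Lgals4 was below Lgals8 by 1.02 (95% interval 0.61 to 1.44), below Lgals3 by 0.79 (0.28 to 1.29) and below Lgals9 by 0.62 (0.11 to 1.14) on the log2 scale. Lgalsl, a galectin-related protein gene, lay on the other side of 0 (0.44 ± 0.19, adjusted p = 0.281, authors' deposited table). In all, 7 of the 9 lay below 0, with a median of -0.07, so 22.2% lay above 0 against 50.6% of all genes tested. The 7 include Lgals1 (-0.0041) and Lgals2 (-0.0021), whose signs changed when centred on genes with a mean count of at least 500. Some mouse strains carry Lgals6, a near-identical copy of Lgals4, and the counting of reads shared by such copies is not given in the sources used here, so the value of Lgals4 may include both.

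Genes with Mmp, Adam or Adamts symbols, most of them for proteases that cut matrix and surface proteins, gave 1 call among 20 tested, and 9 more had no adjusted p. Adamts3 had a log2 fold change of -3.02 ± 0.82 (SE) and an adjusted p of 0.0188 in the authors' deposited table. Its mean count was 15.5, which with that fold corresponds to about 27.5 normalized counts in siNT and 3.40 in siNr1h2, so its size is poorly fixed. It is one of the procollagen N-proteinases together with Adamts2 and Adamts14, and also activates the lymphatic growth factor VEGF-C. Those relatives had mean counts of 6.40 and 4.96 and log2 values of 0.82 ± 1.11 and 0.48 ± 1.21 by the authors' deposited table, without adjusted p. Adamts3 minus Adamts2 was -3.84 (95% interval -6.54 to -1.14) and Adamts3 minus Adamts14 -3.50 (-6.36 to -0.63) on the log2 scale. The Adamts-like genes Adamtsl4 and Adamtsl5, which lack a protease domain, are counted in this class, and Adamtsl4 stood at -0.66 ± 0.64 (adjusted p = 0.723, authors' deposited table).

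The sheddases were the abundant proteases. Adam10, which cleaves Notch and cadherins, had 168 normalized counts per kb, Adam17, which releases EGF receptor ligands and TNF, 120, and Adam9 70.1. They stood at -0.03 ± 0.14, -0.13 ± 0.17 and -0.04 ± 0.19 in the authors' deposited table, with adjusted p-values of 0.962, 0.805 and 0.963. As folds the intervals were 0.805 to 1.19 for Adam10, 0.722 to 1.15 for Adam17 and 0.750 to 1.27 for Adam9. Annotated exons of Adam17 overlap those of Iah1 (mean count 201) on the opposite strand, so reads in that overlap cannot be assigned. The 8 Mmp genes, the classical matrix metalloproteases, had mean counts from 6.90 to 41.2, and none of the 7 tested passed or could have been called at 2 times. Mmp9, the gelatinase of invading trophoblast, stood at -0.71 ± 0.57 (adjusted p = 0.642) in the authors' deposited table.

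Timp genes, whose products inhibit these enzymes, were all scarce and all below 0. Timp1 stood at -3.01 ± 1.25, Timp3 at -1.83 ± 0.92 and Timp2 at -1.27 ± 0.99 in the authors' deposited table, at mean counts of 6.52, 9.99 and 7.53. Only Timp3 had an adjusted p (0.369). The unadjusted p-values were 0.0157 for Timp1, 0.0476 for Timp3 and 0.198 for Timp2, so no change was established for any of them.

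**Figure D4:**
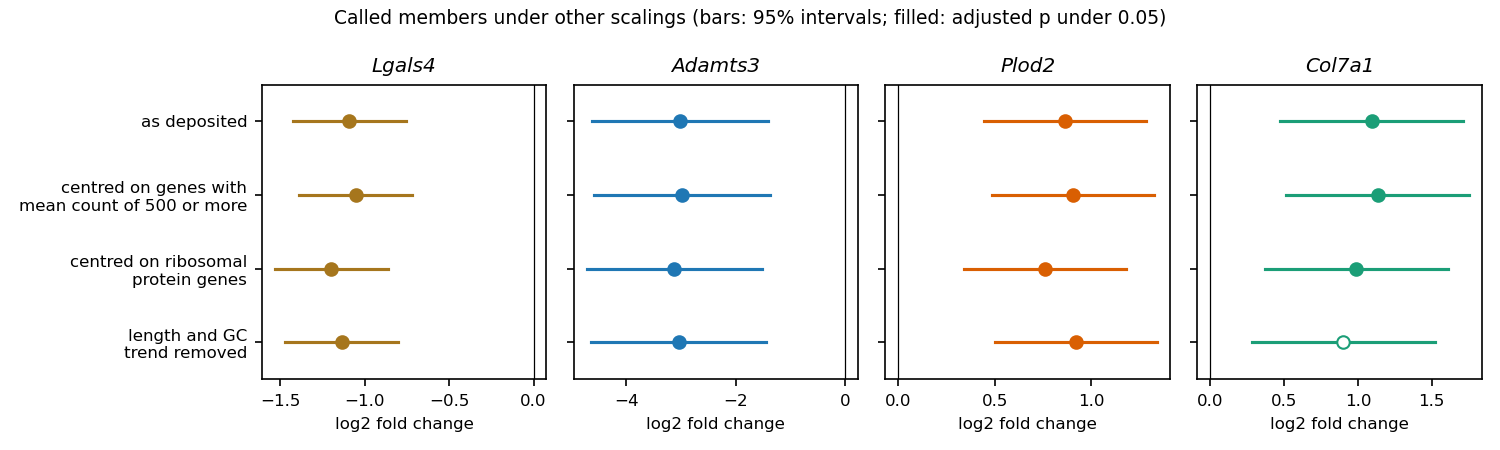
Log2 fold change (x axis, siNr1h2 over siNT) of the 4 called genes as deposited and under 3 other scalings, with bars for 95% intervals; filled points passed an adjusted p of 0.05. Lgals4, Adamts3 and Plod2 passed under each of the 4 scalings shown, and Col7a1 missed the threshold once the length and GC trend was removed.

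Genes that work with this group were counted from lists that are not defined by the symbol rule. Procollagen folding and secretion had 21 of its genes in the table, 18 tested, with 1 lower and 0 higher (median log2 fold change 0.00). That is 5.56% called, against 1.98% of all genes tested, and no list's difference from this share was tested. At an unadjusted p under 0.05 there were 4 of the 18 (22.2%), against 13.3% of all genes tested, which was not tested either. Colgalt2, which adds galactose to hydroxylysine of collagen, was 5.04 times lower (95% interval 2.68 to 9.47, adjusted p = 0.000154) in the authors' deposited table, at a mean count of 42.2. In this list P4hb, the protein disulfide isomerase that is also the β subunit of prolyl 4-hydroxylase, stood at 0.29 ± 0.12 (adjusted p = 0.233) and P3h4, a partner of lysyl hydroxylase 1, at -1.54 ± 0.69 (adjusted p = 0.289) by the authors' deposited table. A list of plasminogen and proprotein convertase genes with surface regulators of matrix proteases had 9 tested, with 1 lower and 1 higher (22.2% called, median 0.39). Both calls were surface regulators, Reck and Bsg, and no plasminogen activator, receptor, serpin or convertase gene of the list passed. At an unadjusted p under 0.05 there were 5 of the 9 (55.6%), against 13.3% of all genes tested, a difference that was not tested. Reck, a membrane-anchored inhibitor of matrix metalloproteases, was 5.23 times lower (2.06 to 13.3, adjusted p = 0.0340) in the authors' deposited table, at a mean count of 19.2. Bsg (basigin), a surface protein known to induce matrix metalloproteases, was 1.33 times higher (1.14 to 1.56, adjusted p = 0.0276) in the authors' deposited table. Its mean count was 3877, and its adjusted p was 0.114 when fold changes were centred on ribosomal protein genes and 0.171 without the length and GC trend. Plaur, the urokinase receptor gene, stood at 0.73 ± 0.29 (adjusted p = 0.207, authors' deposited table).

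None of 27 tested integrin adaptor genes passed at 0.05, against 1.98% of all genes tested, and their median was 0.11. An unadjusted p under 0.05 was seen for 6 (22.2%), against 13.3% of all genes tested, a difference that was not tested. Zyx (zyxin, of focal adhesions and junctions) stood at 0.55 ± 0.20 (adjusted p = 0.156), Rsu1 at -0.46 ± 0.18 (adjusted p = 0.175) and Parva (α-parvin) at -0.71 ± 0.30 (adjusted p = 0.250) in the authors' deposited table. Rsu1 and Parva are parts of the complex around integrin-linked kinase. Centred on ribosomal protein genes, Rsu1 passed (adjusted p = 0.0364). None of 19 other tested basement membrane and matrix genes passed either, with 2 (10.5%) at an unadjusted p under 0.05 and a median of -0.11. Their smallest p-values belonged to Fbln2 (-1.91 ± 0.72), Thbs2 (1.60 ± 0.80) and Fbln5 (-1.07 ± 0.62) in the authors' deposited table, all at mean counts under 20, with adjusted p-values of 0.168, 0.364 and 0.458.

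The knockdown itself was present, Nr1h2 being 5.03 times lower (95% interval 3.89 to 6.50) in the authors' deposited table. All 14 listed morula and blastocyst markers were in the table, with a summed mean count of 168108, of which 147367 was Dppa3. Of the 14, 2 were lower (14.3%), Obox6 and Krt8, against 1.52% of all genes tested. Of the 8 parietal and primitive endoderm markers, 1 of 7 tested was lower (14.3%), Dab2 (adjusted p = 0.0155, authors' deposited table). Of other cell types the embryos could carry, 3 of 9 cumulus and granulosa markers had a row (summed mean count 70.0, of which 65.1 was Amhr2). So did 1 of 3 oviduct markers (24.7) and 2 of 6 blood marker symbols (175, of which 150 was Cd68). Adgre1 and Emr1, both without a row, are symbols of the same gene among those 6. Among stromal markers, 3 of 8 had a row (190, of which 156 was Pdgfra, also a primitive endoderm gene). Cyp19a1 and Foxl2, both cumulus and granulosa markers, had no adjusted p and could not pass. None of the tested cumulus, oviduct, blood or stromal markers passed. Amhr2 was 1.74 times higher (95% interval 1.08 to 2.80) but missed the threshold (adjusted p = 0.276, authors' deposited table). A change of 2 times could have been called for 1 stromal and 1 blood marker, and for 0 cumulus or oviduct markers. Not passing therefore does not show that such cells were equal in both groups. Over all genes the calls were 55 higher and 184 lower. That split became 82 and 142 when fold changes were centred on genes whose mean count was 500 or more, and 36 and 442 when centred on ribosomal protein genes, whose median lay 0.11 above 0. The 4 calls among matrix and adhesion genes held under both centrings.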

How the data were processed

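RNA-seq of 4 mouse morula samples (2 siNT, 2 siNr1h2) was analysed from 1 table of the authors' own comparison. Per the labels' protocols, the morulae went through SMART-Seq v4 and Nextera XT, which keep no strand. The submitters' processing notes name mm9 and, with no role, DESeq2, edgeR, STAR, RSEM, Cufflinks 2.2.1 and HTSeq 0.12.4. Annotation, parameters and the handling of multi-mapped reads: not given in the sources used here. Per the file headers, which are those of a DESeq2 results table, the deposited values are the mean normalized count (a signal per gene after size-factor scaling), the log2 fold change and its error, the Wald statistic (a score), the p-value and the adjusted p-value. The deposited statistic was fold change over standard error, so folds were not shrunken. Benjamini-Hochberg adjustment over 12069 genes gave the authors' adjusted p-value. The remaining 1589 genes, with mean counts up to 8.00, had none.

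Folds, normal 95% intervals, approximate group means (from mean count and fold, 2 samples a group) and counts per kb were computed, the last with the longest protein-coding GENCODE transcript by symbol, found for all 98 members. No count model was fitted, since no file used gives values per sample, and the depth per sample is unknown. The alternatives recomputed p-values from the deposited fold changes, standard errors and Wald statistics and adjusted them over all genes again. The trend with transcript length and GC content (weighted cubic splines) covered 99.4% of tested genes. The text names called members, per class up to 4 with the smallest p and 3 with the highest count, members with a count of at least 50 and an absolute log2 change of at least 1, up to 3 genes per other list, and Nr1h2. Of the genes counted, 1 is not reported here. Further members are named, chosen after their values were seen. The members and lists were chosen with earlier results of these data known. Alternatives covered thresholds, low-count filters, scaling, the reference distribution and the trend. Scripts (Python 3.11.15 with scikit-learn 1.9.0, scipy 1.17.1, pandas 2.3.3) were tested on simulated fold changes.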

Additional observations from a re-analysis of the deposited data

How the results depend on the processing

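Among the 98 genes, the 2 higher and 2 lower calls were the same in number at an adjusted p of 0.1, with a minimum fold of 1.5, without the low-count filter, under both centrings and without the 4 genes matched by symbol only. At 0.01 there was 1 higher (Plod2) and 1 lower (Lgals4), against 17 higher and 92 lower over all genes, which at 0.1 had 125 higher and 270 lower. With only genes of a mean count of at least 50 there was 1 lower, since Adamts3 was not tested. Without the trend with transcript length and GC content there was 1 higher, since Col7a1 missed. Centred on ribosomal protein genes, all genes gave 36 higher and 442 lower. With a t distribution of 2 degrees of freedom, 0 were higher and 0 lower, over all genes too (smallest adjusted p = 0.948), a design too small to pass, which says nothing about stability. Some genes near 0 that did not pass changed sign. Centred on genes with a mean count of at least 500, log2 fold changes were 0.0091 for Adam10, 0.00083 for Adam9, 0.022 for Col4a1, 0.018 for Itgb1, 0.027 for Itgb7, 0.013 for Lama5, 0.034 for Lgals1, 0.036 for Lgals2, 0.034 for Mmp19 and 0.015 for P4ha2. Centred on ribosomal protein genes they were -0.038 for Adamts10, -0.081 for Col5a3, -0.0077 for Itgav, -0.044 for Itgb3bp, -0.036 for Lamb2, -0.080 for Mmp24 and -0.0082 for Sparc. Without the length and GC trend they were 0.028 for Adam10, -0.078 for Adamts10, -0.18 for Col5a3, 0.021 for Itgb1, -0.080 for Lamb2, 0.0035 for Mmp19 and -0.12 for Mmp24. No paired analysis was possible because the table gives no value per sample, and for the same reason no replicate could be left out. Depth limits most the 33 tested genes with mean counts under 50 and the 24 without an adjusted p.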
